A study of Mus musculus with 9 samples.

Results

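The Skint genes encode butyrophilin-like membrane proteins of thymic epithelium and skin keratinocytes. Skint1, Skint2, Skint3, Skint4, Skint5, Skint6, Skint7, Skint9, Skint10 and Skint11 were followed here, found by their symbol in the epidermal count table. They are 10 of the 52550 genes listed, and all 10 passed the filter on low counts, as did 18492 genes in all. The paralogue Skint8 is also in the table. It was not among the genes chosen and is named only where a result turns on it.

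RNA came from intact ear epidermal sheets of wild type C57BL/6 mice (C57BL/6J in the methods) aged 8 weeks, in 3 groups of 3 libraries. The VAS+H2O group received Vaseline on the skin and water by gavage, the IMQ+H2O group imiquimod cream and water, and the IMQ+XYF group imiquimod cream and XYF, a herbal decoction, at 23.3 mg/g. Gavage lasted 10 days in every group, and cream or Vaseline was applied for 5 days. Imiquimod is an agonist of Toll-like receptor 7 that induces psoriasis-like inflammation in mice. The sheets are stated to come from 2 mice, without saying whether this is per library, so p-values measure the spread between these libraries, which may be technical.

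Skint proteins carry immunoglobulin-like domains outside the cell and several membrane-spanning segments. Skint1 is the best known member. Its expression in the thymus is required for the selection of the γδ T cells that later settle in mouse epidermis as dendritic epidermal T cells. Those cells sit between keratinocytes and respond to stressed or wounded neighbours. Skint genes are known in rodents as an expanded family, while the human counterpart is a pseudogene.

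The genes lie side by side on chromosome 4. In GENCODE M21 on GRCm38, the build the authors aligned to, the 11 Skint genes span chr4:111919392-114245028, a length of 2.33 megabases. The order from the low coordinate is Skint8, Skint7, Skint1, Skint4, Skint3, Skint9, Skint2, Skint10, Skint6, Skint5 and Skint11, with 7 genes on the plus strand and 4 on the minus strand. Skint6 and Skint5 are the longest loci, with 482358 and 521613 bases and 49 and 59 exon blocks. Skint7 is the shortest, with 15301 bases and 7 exon blocks.

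Exact stretches shared before the start sites were used to describe the genes in sets. The members of a set did not all change alike. Among Skint1, Skint3, Skint4, Skint5 and Skint6, log2 fold changes of IMQ+H2O against VAS+H2O ran from -0.94 for Skint4 to 0.51 for Skint3. Over the 250 bases before the start, Skint5 and Skint6 were 88.8% identical with gaps counted. The next closest pair, Skint10 and Skint11, was 57.8% identical. RefSeq promoters (GRCm38.p6) were found for all 10 genes, and the 250 bases before each start were searched for the longest stretch shared exactly within a set. The sets were chosen after the sequences and the fold changes had been seen, so any match between them is a description and carries no test. Skint1, Skint3, Skint4, Skint5 and Skint6 shared 14 bases, given here in capitals. These occurred on either strand in 0.0152% of 32851 promoters, those 5 only. The stretch was picked for being shared by these genes, so this percentage carries no test. It began 231 bases before the start of Skint1, 103 before Skint3, 47 before Skint4, and 228 before Skint5 and Skint6.
Skint1 (chr4:112006019-112006063, plus strand): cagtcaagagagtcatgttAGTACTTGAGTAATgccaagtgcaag
Skint3 (chr4:112232118-112232167, plus strand): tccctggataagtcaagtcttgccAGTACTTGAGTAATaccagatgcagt
Skint4 (chr4:112081399-112081448, plus strand, the second RefSeq start): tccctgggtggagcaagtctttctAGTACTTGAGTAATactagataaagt
Skint5 (chr4:113999706-113999753, minus strand): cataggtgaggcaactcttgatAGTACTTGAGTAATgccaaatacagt
Skint6 (chr4:113287176-113287223, minus strand): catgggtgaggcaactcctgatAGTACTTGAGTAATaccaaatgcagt

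Skint9, Skint10 and Skint11 shared another stretch of 13 bases, in capitals, picked in the same way. It occurred in 0.00913% of all promoters, those 3 only. It began 199, 113 and 62 bases before their starts, in that order. None of the 3 carried the first stretch.
Skint9 (chr4:112434160-112434208, minus strand): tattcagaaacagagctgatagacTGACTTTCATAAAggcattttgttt
Skint10 (chr4:112774950-112774998, minus strand): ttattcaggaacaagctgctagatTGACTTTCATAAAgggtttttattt
Skint11 (chr4:114163298-114163346, plus strand): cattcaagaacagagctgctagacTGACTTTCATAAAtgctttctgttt

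Skint7 and its neighbour Skint8 shared 51 bases, in capitals, found in no other promoter of the set. The stretch ended 2 bases before the start of Skint7 and 180 bases before the start of Skint8. The 250 bases before Skint2 held none of the shared stretches.
Skint7 (chr4:111972851-111972926, plus strand): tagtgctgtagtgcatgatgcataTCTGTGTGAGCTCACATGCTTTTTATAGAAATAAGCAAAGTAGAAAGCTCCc
Skint8 (chr4:111919305-111919387, plus strand): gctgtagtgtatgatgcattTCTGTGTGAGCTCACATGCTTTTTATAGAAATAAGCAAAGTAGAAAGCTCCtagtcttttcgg

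The coding sequences grouped in part alike. By local alignment of the longest annotated coding sequences, Skint7 and Skint8 were 91.8% identical over 1178 aligned bases, Skint5 and Skint6 89.3% over 3713, and Skint9 and Skint10 86.9% over 952. Skint11 was 83.1% identical to Skint9 and 83.0% to Skint10. Skint2, which held no shared promoter stretch, was 85.3% identical to Skint4 and 84.7% to Skint3 by coding sequence. A read that falls within a stretch shared exactly cannot be assigned to 1 gene. Of all stretches of 100 bases in the annotated transcripts, Skint7 shared 3.49% with another gene, which was Skint8, and Skint11 shared 0.45% with 1 gene outside the family. The other 8 members shared 0. At 50 bases, Skint5 and Skint6 had 175 stretches in common, Skint7 and Skint8 272, and Skint2 and Skint3 19. At that length Skint7 shared 7.63% of its stretches with 506 genes, Skint8 among them, and Skint11 shared 4.51% with 1 gene. How reads that fit several genes were counted is not given in the sources used here, so the values of Skint7 in particular may hold reads of Skint8 or of other genes. Skint6 overlaps the antisense gene Gm12823 by 63 exonic bases, and the strand setting of the counting is not given either.

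The libraries held 30298275 to 64771160 counts on genes, and levels are given as CPM, a gene's counts relative to library size, with libraries scaled by the trimmed mean of M values (TMM). The floor of detection was set at 3 counts, or 0.0463 to 0.099 CPM. The epidermal label was checked on 7 basal keratinocyte genes, whose summed CPM was 18978 to 25435 over the libraries. Some libraries stood apart within their group. IMQ+H2O replicate 3 had 225 summed CPM of 9 neutrophil and monocyte genes against 66.9 and 80.9 in the other IMQ+H2O libraries, and 1412 summed CPM of 8 cornifying genes against 4142 and 3680. Among the control libraries, VAS+H2O replicate 2 had 661 summed CPM of 8 dermal fibroblast genes against 81.4 and 125 in the other controls. Among the XYF libraries, replicate 1 had 160 summed CPM of the neutrophil and monocyte genes against 82.3 and 90.7. Fold changes of the members against the controls are also given without IMQ+H2O replicate 3, and the counts of calls without VAS+H2O replicate 2 and IMQ+XYF replicate 1.

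The Skint family was expressed in every library. The summed CPM of the 10 genes was 522, 502 and 667 in VAS+H2O, 501, 538 and 362 under IMQ+H2O, and 481, 493 and 451 with IMQ+XYF, in the order of the replicates. IMQ+H2O overlapped with both other groups, while the highest IMQ+XYF library, at 493, lay below the lowest control, at 502. As a share of all counts the family made up 0.0586% ± 0.0075 (SD, n = 3) in VAS+H2O, 0.0453% ± 0.0086 (SD, n = 3) under IMQ+H2O and 0.0469% ± 0.0014 (SD, n = 3) with IMQ+XYF. IMQ+H2O replicate 3 was the lowest library of its group for 10 of the 10 genes, and VAS+H2O replicate 3 was the highest of its group for 10 of 10. Whether the makeup of these libraries takes part in the results below was not tested, beyond the values given without them. In epidermal sheets, fewer keratinocytes and less RNA per keratinocyte cannot be told apart.

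Levels differed widely between members. Per kilobase of exon sequence in VAS+H2O, Skint9 had the highest level with 96.8 ± 16.9 CPM (SD, n = 3) and Skint2 the lowest with 0.745 ± 0.248 CPM (SD, n = 3). Skint5 came second with 23.2 ± 3.35 CPM per kilobase. Skint6, Skint4, Skint11, Skint3, Skint1 and Skint10 followed between 17.6 and 13.5 CPM per kilobase, and from Skint5 down to Skint10 the libraries of each neighbouring pair overlapped. Skint7 was well below them at 2.13 ± 0.719 CPM per kilobase. In IMQ+H2O the order was different below Skint9. Skint3 came second with 22.3 ± 3.17 CPM per kilobase and Skint11 next with 18.5 ± 2.26, while Skint4 came eighth with 8.52 ± 2.91. Neighbours overlapped from Skint3 to Skint4 there, and Skint7 and Skint2 overlapped as well. In IMQ+XYF Skint3 stood apart from Skint11 in every library, with 23.2 ± 0.775 against 17.4 ± 1.45 CPM per kilobase. The order below Skint9 depends on the length used, here the union of all exons. That union was 3738 bases for Skint10 and 3014 for Skint1, where the longest transcripts had 2149 and 1735. For Skint9, Skint3 and Skint11 both lengths were the same.

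The comparison of IMQ+H2O with VAS+H2O asked how these genes moved with the psoriasis-like inflammation, and the members did not move together. Skint7 fell by a factor of 3.13 and was the only differentially expressed gene (DEG) among the 10 members followed. Skint4 fell to about 0.522 of the control level, past the adjusted p but short of the fold cutoff. Skint1, Skint5 and Skint6 were lower in every imiquimod library than in any control but missed the adjusted p. Skint9, Skint10 and Skint11 had log2 fold changes from -0.13 to 0.22, none of which passed. Skint3 had the highest log2 fold change, at 0.51.

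A gene counted as a DEG when edgeR's quasi-likelihood test gave it an adjusted p no higher than 0.05 together with a log2 fold change of 1 or more in either direction. P-values were adjusted after Benjamini and Hochberg across 18009 tested genes. Of the 10 members 1 was a DEG with lower expression, where 4.04% of all genes tested were. By the adjusted p alone 2 members were lower, against 9.41% of all genes, and 0 were higher, against 12.7%. With DESeq2 5 members passed the adjusted p. Lower were 4, Skint1, Skint4, Skint5 and Skint7, against 11.5% of the 18629 genes with an adjusted p there, and higher was 1, Skint3, against 14.5%. The median log2 fold change of the members was -0.49, beside -0.03 over all genes tested. In 5 of 10 members every IMQ+H2O library was below every VAS+H2O library, which held for 21.3% of the 18492 genes, and in 0 members was every library above, which held for 23.1%.

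**Figure D1:**
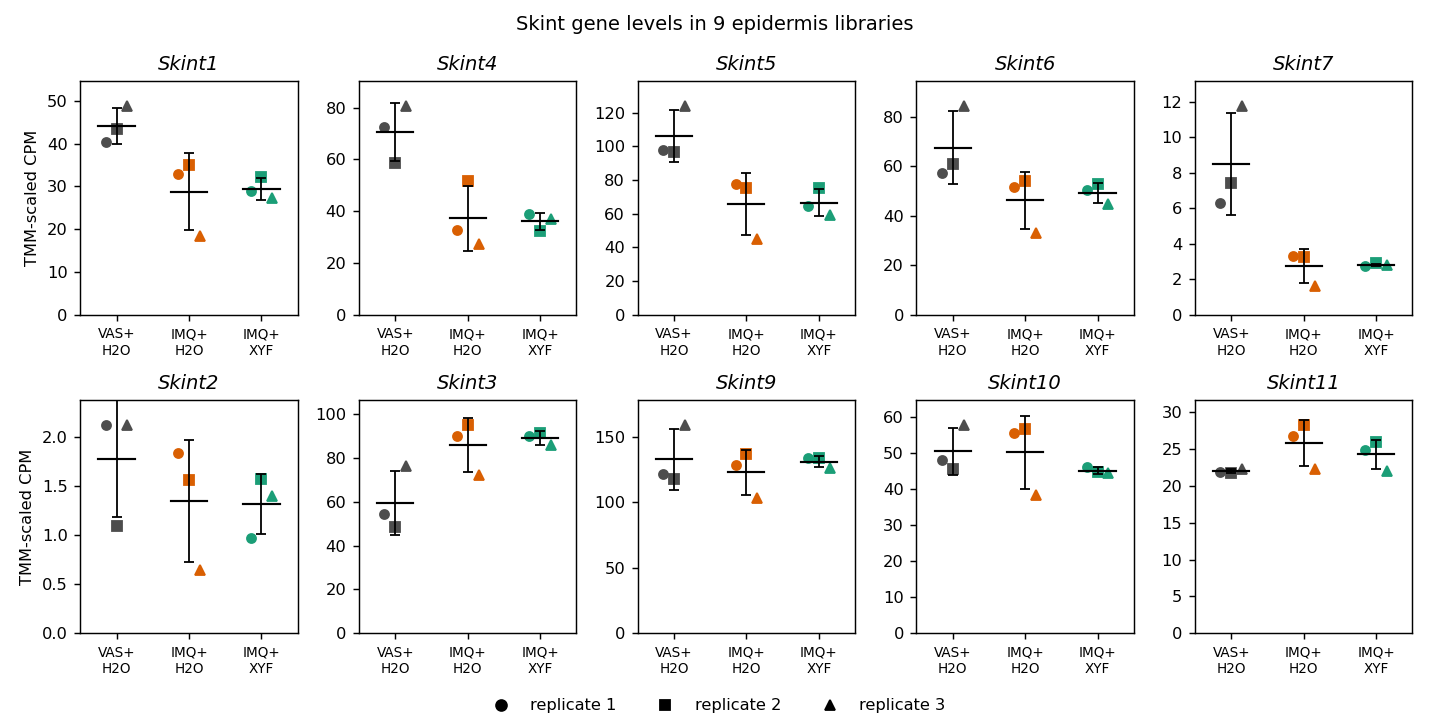
TMM-scaled CPM of the 10 Skint genes (vertical axes, each from 0) in the 3 libraries of each group. Symbols are replicates, the horizontal line is the mean and the error bar the SD. Skint7 lay between 6.32 and 11.8 CPM in VAS+H2O and between 1.64 and 3.32 in both imiquimod groups, while Skint9 overlapped between all groups.

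Reads on Skint7 numbered 299, 245 and 410 in the controls, 96, 126 and 71 under IMQ+H2O, and 176, 94 and 98 with IMQ+XYF. These correspond to 6.32, 7.43 and 11.8 CPM, to 3.32, 3.28 and 1.64 CPM, and to 2.76, 2.90 and 2.79 CPM. The control libraries all lay above the 6 others, and the XYF libraries were nearly equal. For IMQ+H2O against VAS+H2O the log2 fold change was -1.65 ± 0.35 (SE), with an adjusted p of 0.0211 by edgeR and 6.29e-05 by DESeq2. Without IMQ+H2O replicate 3 it was -1.38 with an edgeR adjusted p of 0.0434. Skint8, which shares sequence with it, had an edgeR log2 fold change of -1.22 ± 0.22 (SE) with an adjusted p of 0.0143. Skint8, outside the members followed, was thus a DEG as well.

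Skint7 had the lowest counts of the members apart from Skint2, and its call depended on single control libraries. The edgeR adjusted p over the 6 fits that left out 1 library ranged from 0.0426 to 0.0544, and Skint7 was no DEG without VAS+H2O replicate 2 or without VAS+H2O replicate 3. The log2 fold change ranged from -1.83 to -1.31 over these fits.

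Skint4 lies beside Skint3 in the cluster. It had 72.6, 58.7 and 80.6 CPM in VAS+H2O, 32.9, 51.5 and 27.3 CPM in IMQ+H2O, and 39.0, 32.5 and 36.8 CPM in IMQ+XYF. The control libraries were above all others. Between IMQ+H2O and VAS+H2O the log2 fold change was -0.94 ± 0.24 (SE), with an edgeR adjusted p of 0.0360. Without IMQ+H2O replicate 3 the adjusted p was 0.0819 and the log2 fold change -0.75, and over the fits that left out 1 library the adjusted p ranged from 0.0156 to 0.116. Leaving out IMQ+H2O replicate 2, the highest imiquimod library for this gene, gave -1.21, and Skint4 was then a DEG beside Skint7.

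Skint5 and Skint6, the closely related pair with the largest number of exons, followed each other. Skint5 had 97.8, 97.0 and 124 CPM in VAS+H2O, 77.8, 75.4 and 44.9 CPM in IMQ+H2O, and 64.8, 75.2 and 59.5 CPM in IMQ+XYF. Skint6 had 57.2, 60.8 and 84.4 CPM in VAS+H2O, 51.5, 54.3 and 33.0 CPM in IMQ+H2O, and 50.3, 52.8 and 44.8 CPM in IMQ+XYF. For both genes every control library was above every imiquimod library, with a narrow gap for Skint6. The log2 fold changes of IMQ+H2O against VAS+H2O were -0.70 ± 0.22 (SE) for Skint5 and -0.56 ± 0.22 (SE) for Skint6, with edgeR adjusted p of 0.0599 and 0.117. Without IMQ+H2O replicate 3 they were -0.48 and -0.36.

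Skint1, the gene needed for thymic selection of dendritic epidermal T cells, had 40.5, 43.4 and 48.8 CPM in VAS+H2O, 32.8, 35.0 and 18.4 CPM in IMQ+H2O, and 28.9, 32.2 and 27.3 CPM in IMQ+XYF. All controls were again above all imiquimod libraries. The log2 fold change of IMQ+H2O against VAS+H2O was -0.64 ± 0.23 (SE), with an adjusted p of 0.0959 by edgeR and 0.0338 by DESeq2. It was -0.40 without IMQ+H2O replicate 3. Over the 9 libraries its profile was the closest to that of Skint5, with a root mean square difference of 0.0754 between their mean-centred log2 CPM, the smallest of all pairs of members. Second was the pair Skint9 and Skint10 with 0.115, followed by Skint1 and Skint6 with 0.119 and Skint5 and Skint6 with 0.124. All libraries are shared between the genes, so these are descriptions.

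Skint3 was the member with the highest fold change. Wounded keratinocytes have been described to use Skint3 and Skint9 in signalling to dendritic epidermal T cells. Skint3 had 54.3, 48.5 and 76.1 CPM in VAS+H2O, 90.2, 95.2 and 72.1 CPM in IMQ+H2O, and 90.0, 91.5 and 85.8 CPM in IMQ+XYF. In IMQ+H2O replicates 1 and 2 were above all controls and replicate 3 was within them, while the XYF libraries were all above. The log2 fold change of IMQ+H2O against VAS+H2O was 0.51 ± 0.18 (SE), with an adjusted p of 0.0900 by edgeR and 0.0332 by DESeq2. Without IMQ+H2O replicate 3 it was 0.63, and without VAS+H2O replicate 3 Skint3 was the only member to pass the adjusted p in edgeR, at 0.0290.

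Skint9, the most abundant member, had 121, 118 and 159 CPM in VAS+H2O, 129, 137 and 103 CPM under IMQ+H2O, and 134, 134 and 126 CPM with IMQ+XYF. Skint10 had 47.9, 45.5 and 57.8 CPM in VAS+H2O, 55.4, 56.5 and 38.3 CPM in IMQ+H2O, and 46.1, 44.7 and 44.4 CPM in IMQ+XYF. Both genes overlapped between all groups. Skint11 had 21.8, 21.8 and 22.3 CPM in the controls and 26.8, 28.3 and 22.2 CPM in IMQ+H2O, where replicate 3 lay within the control range. It had 24.8, 25.9 and 22.0 CPM in IMQ+XYF. The log2 fold changes of IMQ+H2O against VAS+H2O were -0.13 (95% interval -0.49 to 0.23) for Skint9, -0.02 (-0.42 to 0.38) for Skint10 and 0.22 (-0.06 to 0.49) for Skint11, none of which passed the test. They were -0.013, 0.14 and 0.31 without IMQ+H2O replicate 3.

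Skint2 had the lowest counts of the members, with 28 to 100 per library, above the floor of 3 counts. It had 2.11, 1.09 and 2.12 CPM in VAS+H2O and 1.83, 1.56 and 0.648 CPM in IMQ+H2O, which overlapped, and 0.974, 1.57 and 1.40 CPM in IMQ+XYF. The log2 fold change was -0.42 ± 0.45 (SE), with a 95% interval from -1.48 to 0.63, the widest of the members. Leaving out IMQ+H2O replicate 3 gave -0.08.

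**Figure D2:**
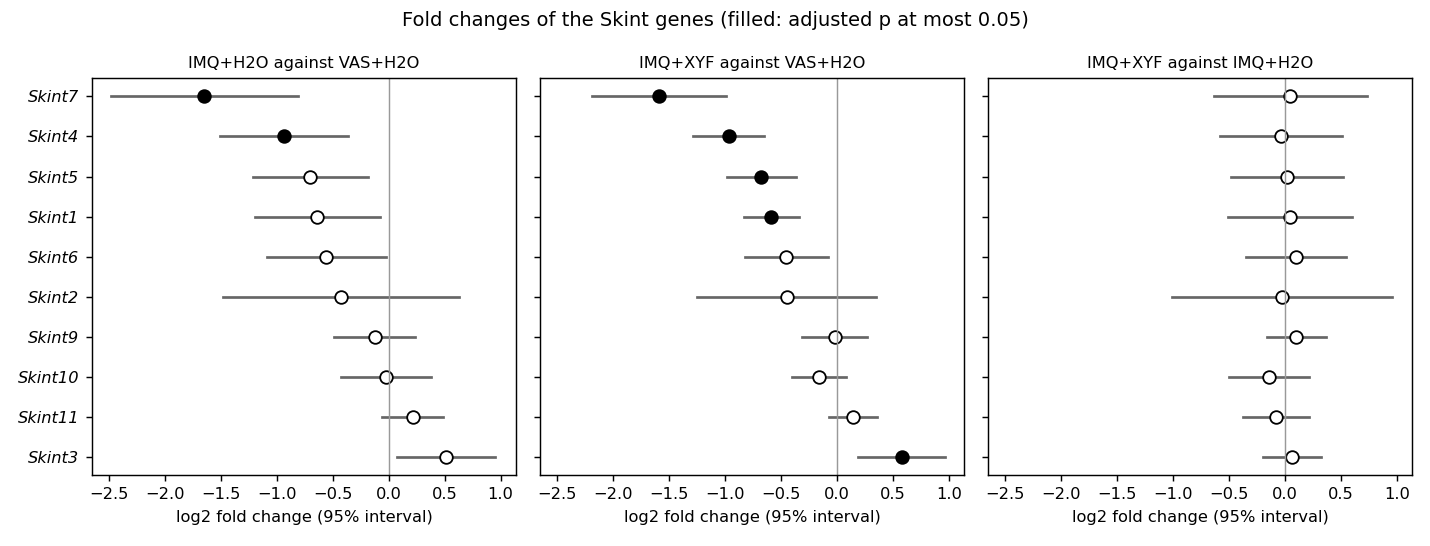
Log2 fold changes of the 10 Skint genes in the 3 comparisons (horizontal axis, with 95% intervals), ordered by the first comparison. Filled points had an adjusted p of at most 0.05 by edgeR, which were 2 genes in IMQ+H2O against VAS+H2O, 5 in IMQ+XYF against VAS+H2O and 0 in IMQ+XYF against IMQ+H2O.

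With IMQ+XYF against VAS+H2O, Skint7, Skint4, Skint5 and Skint1 were lower and Skint3 was higher past the adjusted p. This comparison uses the same control libraries as the former, so the 2 are not independent. Of the 10 members, 1 was a DEG with lower expression, Skint7, where 3.05% of the 17954 genes tested were. By the adjusted p alone 4 members were lower, against 12.0% of all genes, and 1 was higher, against 16.7%. The median log2 fold change of the members was -0.45, beside -0.04 over all genes tested.

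In this comparison Skint7 had a log2 fold change of -1.59 ± 0.25 (SE) with an edgeR adjusted p of 0.00535, and Skint4 of -0.97 ± 0.13 (SE) with 0.00335. Skint5 fell by 0.68 ± 0.13 (SE) on the log2 scale, with an edgeR adjusted p of 0.0101. Skint1 fell by 0.59 ± 0.10 (SE), with an adjusted p of 0.00776. Skint3 rose by 0.58 ± 0.16 (SE), with an adjusted p of 0.0386. Skint6 had -0.45 ± 0.16 (SE) and missed the threshold at 0.0723. Skint9, Skint10, Skint11 and Skint2 had log2 fold changes of -0.02, -0.16, 0.14 and -0.45, and none passed. The groups did not overlap downwards in 5 of 10 members, against 22.0% of all genes, and upwards in 1 of 10, against 24.8%. Under 12 other settings and left-out libraries, the adjusted p stayed at most 0.05 in 12 for Skint7, Skint4 and Skint5, in 11 for Skint1 and in 6 for Skint3.

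IMQ+XYF against IMQ+H2O asked whether the decoction moved these genes under imiquimod, and no member passed the test. The log2 fold changes ranged from -0.14 for Skint10 to 0.10 for Skint9, with a median of 0.03 beside 0.00058 over the 17793 genes tested. By edgeR 0 of 10 members were DEGs, where 0.0281% of all genes were, and 0 of 10 had an unadjusted p under 0.05, where 5.43% of all genes had. DESeq2 also called 0 of 10, against 0.757% of all genes. In every member the groups overlapped, while 10.7% of all genes did not overlap in either direction.

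The 95% interval of the log2 fold change in this comparison was widest for Skint2, from -1.01 to 0.96. For Skint7 the 95% interval of the log2 fold change ran from -0.63 to 0.73, and for Skint4 from -0.58 to 0.51. For Skint3 it ran from -0.20 to 0.32 and for Skint9 from -0.16 to 0.36. These are the differences between the XYF and water groups under imiquimod that remain possible, and a p that misses the threshold does not show that the groups were equal. Without IMQ+H2O replicate 3 the log2 fold change of Skint7 was -0.23, that of Skint1 -0.20 and that of Skint5 -0.20, so the sign of these values depended on that library.

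The composition of the family within a library needs no scaling between libraries. The shares of Skint3, Skint5, Skint4 and Skint7 separated the controls from both imiquimod groups. Those of Skint2 overlapped between all groups, and those of Skint10 between VAS+H2O and IMQ+XYF. Each share also depends on the counts of the other members. Skint3 made up 10.4%, 9.66% and 11.4% of the Skint counts in VAS+H2O, 18.0%, 17.7% and 19.9% in IMQ+H2O, and 18.7%, 18.6% and 19.0% in IMQ+XYF. IMQ+H2O replicate 3, which was low for every member, thus had the highest share of Skint3. The share of Skint5 was 18.7%, 19.3% and 18.6% in VAS+H2O, 15.5%, 14.0% and 12.4% in IMQ+H2O, and 13.4%, 15.3% and 13.2% in IMQ+XYF. Skint4 went from 12.6% ± 1.18 to 7.89% ± 1.54 and 7.62% ± 0.889 (SD, n = 3 each), and Skint7 from 1.48% ± 0.275 to 0.575% ± 0.108 and 0.594% ± 0.023.

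Of 3 ratios computed, that of Skint3 to Skint9 counts had the smallest SD relative to its mean within both imiquimod groups, but not within VAS+H2O. It was 0.447, 0.412 and 0.477 in VAS+H2O, 0.701, 0.696 and 0.698 in IMQ+H2O, and 0.673, 0.685 and 0.679 in IMQ+XYF. The imiquimod libraries, replicate 3 included, were all above the controls, and the XYF libraries lay just below the IMQ+H2O libraries. The ratio of Skint3 to Skint5 was 0.556 ± 0.057 in VAS+H2O, 1.34 ± 0.233 under IMQ+H2O and 1.35 ± 0.118 with IMQ+XYF (SD, n = 3 each). These ratios were picked after the values had been seen and carry no test. A ratio shows that the members changed unequally, not which of them changed.

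**Figure D3:**
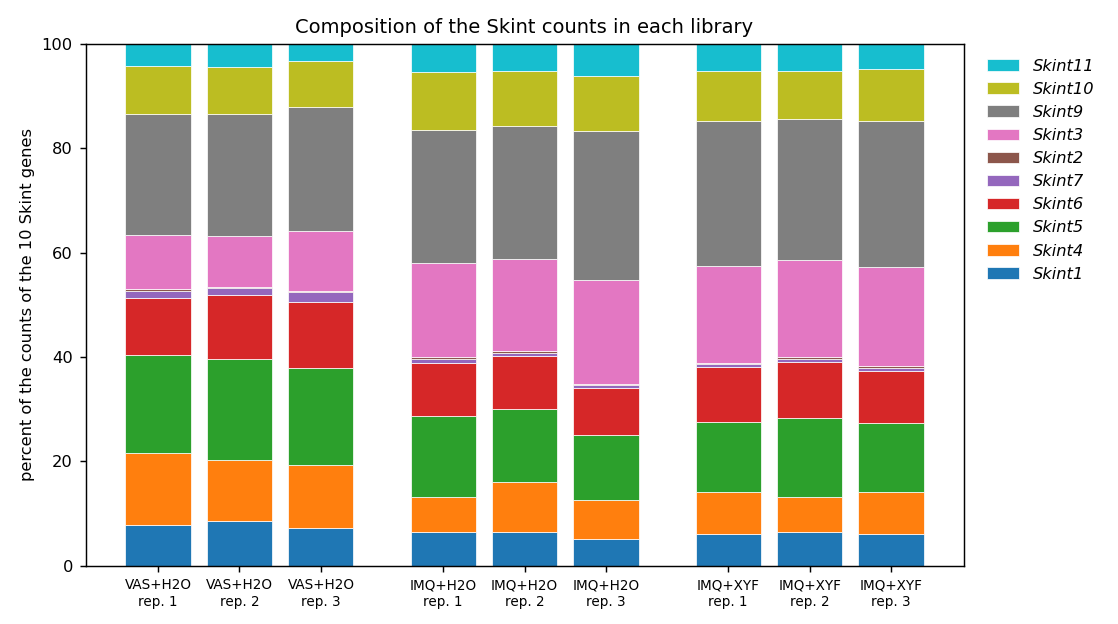
Share of each Skint gene in the summed counts of the 10 genes (vertical axis, percent), 1 bar per library, grouped by treatment. Skint3 took 9.66% to 11.4% of the counts in the VAS+H2O libraries and 17.7% to 19.9% in the 6 imiquimod libraries, and Skint5 took 18.6% to 19.3% against 12.4% to 15.5%.

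Fold changes are set beside position in the cluster here as a description. Skint8, Skint7, Skint1 and Skint4 are consecutive genes at the low-coordinate end, and their edgeR log2 fold changes in IMQ+H2O against VAS+H2O were -1.22, -1.65, -0.64 and -0.94. The next gene, Skint3, had 0.51. Skint6 and Skint5, toward the other end, had -0.56 and -0.70, close to Skint1. Of the nearest protein-coding genes outside the cluster, Slc5a9, a sugar transporter gene on the low side, rose by 0.31 ± 0.09 (SE) with an edgeR adjusted p of 0.0446, and Trabd2b, a gene of a membrane protease acting on Wnt proteins, on the high side, rose by 0.66 ± 0.17 (SE) with 0.0347. Spata6 had a log2 fold change of -0.33 and did not pass. The other neighbours, Agbl4, Gm12830 and Foxd2, had at most 0.157 CPM in any library and were not tested.

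**Figure D4:**
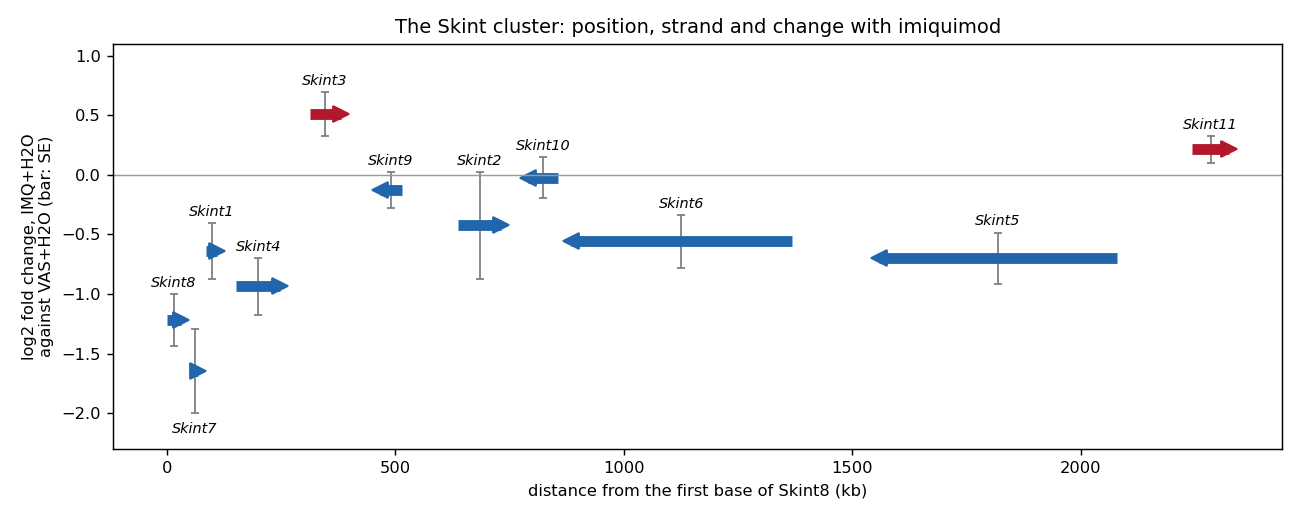
Position of the 11 Skint genes (horizontal axis, kilobases from the first base of Skint8) against the log2 fold change of IMQ+H2O against VAS+H2O (vertical axis, vertical bars are SE). Arrows give the length and strand of each gene, blue below 0 and red above 0. Skint7 and Skint8 at the low end had -1.65 and -1.22, and Skint3, 2 genes beyond Skint1, had 0.51.

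Genes of related function were given by lists written with earlier results of these data known. Of the butyrophilin genes outside the Skint cluster, 10 of 10 were in the table and 1 was tested, Ermap, a gene best known from red blood cells, with 0.57 to 1.33 CPM. Btnl9 had at most 0.394 CPM. The summed CPM of the 10 was 0.712 to 1.70 over the libraries, beside 362 to 667 for the Skint genes. Of 14 keratinocyte ligands of dendritic epidermal T cells, 10 were found and 7 tested, and 0 were DEGs in any comparison. In IMQ+H2O against VAS+H2O the median log2 fold change of the 7 was -0.26. By the adjusted p alone 2 were higher, against 12.7% of all genes, and 0 lower, against 9.41%. The 2, which also had the most CPM, were Cxadr, a ligand of the receptor Jaml, and Plxnb2, a ligand of Cd100. Cxadr rose by 0.37 ± 0.08 (SE) on the log2 scale with an edgeR adjusted p of 0.0264, and Plxnb2 by 0.31 ± 0.08 (SE) with 0.0317.

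Of 16 dendritic epidermal T cell genes, 15 were found and tested, many of which other T cells also express. In IMQ+H2O against VAS+H2O 1 was a DEG with higher and 1 with lower expression, and the median log2 fold change was -0.58. The higher was Thy1, also a gene of other cell types, with 1.24 ± 0.13 (SE) and an edgeR adjusted p of 0.00575, and the lower Cd3d, a subunit of the T cell receptor complex, with -1.06 ± 0.30 (SE) and 0.0465. By the adjusted p alone 4 of 15 were lower, against 9.41% of all genes, and 1 was higher, against 12.7%. With XYF against the controls Thy1 was higher, and Xcl1, a chemokine gene, and Cd247, a signalling chain of the receptor complex, were lower, at -2.11 and -1.02. By the adjusted p alone 7 of 15 were lower there, against 12.0% of all genes, and 1 was higher, against 16.7%. Between the imiquimod groups 0 of 15 were DEGs.

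Wound-induced keratinocyte genes moved strongly in the same libraries, and the part of keratinocyte states in the Skint values was not tested. With imiquimod and water against the controls, 7 of 7 wound-induced genes were DEGs with higher expression, with Krt16 at 5.31, Krt6b at 6.54 and Sprr2d at 4.31 on the log2 scale. Their summed CPM was 544 to 716 in VAS+H2O, 4822 to 14855 in IMQ+H2O, highest in replicate 3, and 5382 to 8882 in IMQ+XYF. Of the 7 basal genes Krt15 was a lower DEG with -2.10, and of the 7 suprabasal genes Krt1 a higher DEG with 1.45. Of the 8 cornifying genes 0 were DEGs, Hrnr having 0.64 and Lor -0.39. These 3 lists had median log2 fold changes of 0.08, 0.21 and -0.11, in this order. By the adjusted p alone 1 basal gene was higher and 3 lower, and 2 suprabasal genes were higher and 0 lower. By this rule 12.7% of all genes were higher and 9.41% lower. By the DEG rule 4.04% of all genes tested were lower, and 1383 of 18009 were DEGs in either direction.

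Markers of other cell types were followed by the same lists. With imiquimod and water against the controls, 2 of 6 tested neutrophil and monocyte genes were DEGs with higher expression, Cxcr2 at 2.38 and Ly6c2, which had 0 counts in every control. The 8 Langerhans cell genes summed to 647 to 876 CPM over the libraries and 0 of them were DEGs, with Cd74 at -0.03 and Mfge8 at 0.29, and 0 of 6 melanocyte genes, with Dct at -0.71 and Pmel at -0.94. Of 6 tested αβ T cell genes Cd28 was lower at -2.10. Lower were also 2 of 8 dermal fibroblast genes, Col1a2 at -2.57 and Pdgfrb at -2.31, and 7 of 7 tested cartilage genes. Those with the smallest adjusted p were Col11a2 at -2.92, Col9a1 at -3.39 and Col11a1 at -2.54, while Comp at -4.23 and Col2a1 at -4.11, named after their values were seen, had larger changes. The sebaceous gland and hair follicle genes summed to 2540 to 6096 CPM, and of 7 tested Scd1 was lower at -1.15. Of all 18009 genes tested in this comparison, 4.04% were DEGs with lower expression, and 1383 were DEGs in either direction. In IMQ+XYF against IMQ+H2O, where no Skint gene passed, Col11a2 and Col9a1 were higher at 1.82 and 2.26. In that comparison 0.0281% of all genes tested were DEGs in either direction. Without VAS+H2O replicate 2, the control with the most fibroblast RNA, 0 Skint members passed in IMQ+H2O against VAS+H2O, and 2 were DEGs in IMQ+XYF against VAS+H2O. In the former comparison the log2 fold changes of Skint7 and Skint4 were then -1.73 and -1.05, beside -1.65 and -0.94 with that library. Skint3 had 0.39, beside 0.51. Over all genes 717 were then DEGs, beside 1383. Whether fibroblast RNA plays a part was not tested.

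The genes whose profile over the 9 libraries lay nearest to the summed Skint CPM were Acadsb, Robo1, Mtm1, Engase and Tuft1, with root mean square differences of 0.0554 to 0.0778 in mean-centred log2 CPM. Skint9 made up 23.3% to 28.5% of the Skint counts in each library, the highest share of a member.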

How the data were processed

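RNA sequencing of 9 epidermal libraries was used, 3 per group, grouped by their deposited labels. The methods and the labels state TruSeq libraries, alignment with STAR 2.5 to GRCm38 and the annotation of Ensembl release 90. The authors deposited whole-number counts per gene without normalization. The counting tool and its strand setting are not given in the sources used here. The labels call the libraries strand-specific.

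Each pair of groups was fitted on its 6 libraries and all genes in R 4.3.3 with edgeR 4.0.16 (TMM, filterByExpr, quasi-likelihood test, Benjamini-Hochberg adjustment), without a covariate. SEs and 95% intervals came from the test statistic and cover these libraries only. CPM used TMM factors over 9 libraries. DESeq2 1.42.0, RLE size factors, no filter, at least 10 counts in every library, 1 fit of all 9 libraries, the replicate block, the adjusted p alone and left-out libraries were alternatives. The fits were tested on simulated data. Replicates of a group differed by at least 24.8 in chi-square per gene, far beyond counting noise, so none was the same library counted again. This measure cannot tell separate animals from separate preparations of 1 RNA. Levels per kilobase used the union of GENCODE M21 exons.

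The members and lists were chosen with earlier results of these data known. Named were the 10 members, of each list the DEGs (up to 3 by adjusted p) or else the 2 with most CPM, 3 protein-coding neighbours on each side, and the 5 nearest profiles; Skint8 and the ratios were chosen after their values were seen. Rows were matched by symbol, and for a symbol listed more than once the row with most counts was used. Protein sequences were not used here, and dermal libraries were not analysed here.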

Additional observations from a re-analysis of the deposited data

How the results depend on the processing

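In IMQ+H2O against VAS+H2O, 1 Skint DEG became 2 with the adjusted p alone, 0 with the replicate block, where the edgeR adjusted p of Skint7 was 0.0673, and 0 to 2 with 1 library left out. It was 0 without VAS+H2O replicate 2 or 3, and 2 without IMQ+H2O replicate 2. The number of Skint genes with an adjusted p of at most 0.05, 2 in the report, was 5 with DESeq2, 4 with all 9 libraries in 1 fit, 1 with no low-count filter, 0 with the replicate block, and 0 to 2 with 1 library left out, counts that were added after seeing the data. In IMQ+XYF against VAS+H2O, 1 DEG became 5 with the adjusted p alone, and 1 to 2 with 1 library left out (2 without VAS+H2O replicate 2 or without IMQ+XYF replicate 1). Between the imiquimod groups the count was 0 under every alternative run. Libraries left out leave 2 in 1 group. The causes were not tested.

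The replicate numbers did not pair the libraries. Of 9 same-numbered pairs 2 had a correlation of deviations over 0.1, with a range from -0.133 to 0.105, and 2 libraries had their best partner under the same number. The block is therefore only an alternative.

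Signs turned only for values near 0. Between the imiquimod groups, the replicate block gave 0.053 for Skint2 and 0.013 for Skint4. With 1 library left out, log2 fold changes there ranged from -0.20 to 0.21 for Skint1, -0.38 to 0.25 for Skint2, -0.057 to 0.14 for Skint3, -0.23 to 0.27 for Skint4, -0.20 to 0.15 for Skint5, -0.10 to 0.23 for Skint6, -0.23 to 0.20 for Skint7 and -0.016 to 0.19 for Skint9. In IMQ+H2O against VAS+H2O they ranged from -0.20 to 0.059 for Skint9 and -0.084 to 0.14 for Skint10, which was 0.0098 with no low-count filter. In IMQ+XYF against VAS+H2O Skint9 ranged from -0.10 to 0.15, and was 0.0016 with no low-count filter and 0.0049 with at least 10 counts in every library.

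Without the 10 genes with the most counts in the denominator, the Skint share in IMQ+XYF was 0.0532%. Skint2 and Skint7 had the lowest counts of the members and the largest SEs in every comparison, and what set these SEs was not tested. The 3 libraries per group limit every test.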
